A study of Mus musculus with 4 samples.

Results

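The cytosolic ribosome is built from ribosomal RNA and the proteins encoded by the Rps genes, for the small subunit, and the Rpl genes, for the large subunit. These genes were read here across immune and tumour cells of mouse triple-negative mammary tumours. The feature table listed 31054 features. All features whose symbol was an Rps or Rpl name followed by a number, with the suffixes a, x, y or l allowed, were taken, together with Rplp0, Rplp1, Rplp2 and Rpsa. The Rps6k kinase genes were left out. This gave 83 genes, of which 31 encode small subunit proteins, 43 large subunit proteins, 3 the large subunit stalk and 6 paralogs of other members. The rule reads symbols only.

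The libraries came from 2 tumour models in female mice. T11-Apobec cells were grown in the number 4 mammary gland of BALB/c mice, and KPB25Luv cells in the same gland of FVB/NJ mice. In each model 1 library came from a tumour treated for 7 days with antibodies against PD1 (10 mg/kg) and CTLA4 (100 µg), from a diameter of 5 mm, and 1 library came from an untreated tumour. Each group was therefore 1 library, so no difference has a replicate check. Treatment cannot be told apart from any other difference between the 2 libraries of a model, nor tumour model from mouse strain, and intervals cover counting error only.

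Total UMIs (unique molecular identifiers, 1 for each captured mRNA molecule) ran from 30369476 to 98475778 per library. Between 5051 and 9469 cells per library were kept, with median depths of 3748 to 9110 UMIs per cell. Pairs of libraries shared 30 to 96 cell barcodes, at most 1.564% of a library's kept cells. Cells were assigned to classes by UMIs of marker genes that include no ribosomal protein gene. T, natural killer (NK), B, plasma, macrophage/monocyte and neutrophil marker sums were each higher in their own class than in every other class of every library. The plasma list, for example, was at 35428 CPM (UMIs per 1000000 UMIs of the class) or more in plasma cells and at most 1475 CPM elsewhere. The classes were set by minimums of these same sums, so the separation follows from the rule and is no check on the classes. The T11-Apobec tumour class rested on mesenchymal genes that fibroblasts also express. Its sum of 4 fibroblast markers was 453.6 CPM in the treated library and 829.4 CPM in the untreated one, and the added neomycin resistance feature was at 58.5 and 43.2 CPM there. The KPB25Luv tumour class was set by epithelial keratin and adhesion genes. Its fibroblast sum was 768.2 CPM in the treated library and 306.4 CPM in the untreated one, and the neomycin feature was at 0 there. The part of fibroblasts in the values of either tumour class was not tested.

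As background, the small subunit reads the mRNA and the large subunit joins amino acids, with the stalk proteins recruiting translation factors. Mammalian ribosomal protein mRNAs begin with a C followed by a run of C and T, the terminal oligopyrimidine (TOP) motif, through which mTOR signalling and the RNA-binding protein Larp1 set their translation. Lymphocytes are known for devoting a large part of their mRNA to these genes, and plasma cells for devoting theirs to immunoglobulin.

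The sequences around the start of transcription show this motif and the members that differ from it at their listed start. RefSeq promoter records on GRCm38.p6 matched 63 of the 83 genes. Each sequence below runs from 30 bases before the listed start to 25 bases after it, in the direction of transcription. Capitals mark the unbroken run of C and T that begins at the listed start, where there is one. Rps27l and Rpl22 have 2 records each, of which 1 is shown.
Rps6, chr4:86857343-86857397, minus strand: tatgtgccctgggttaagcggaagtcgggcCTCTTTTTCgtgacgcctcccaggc
Rps27, chr3:90213624-90213678, minus strand: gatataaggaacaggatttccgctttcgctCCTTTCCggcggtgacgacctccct
Rpl28, chr7:4792935-4792989, plus strand: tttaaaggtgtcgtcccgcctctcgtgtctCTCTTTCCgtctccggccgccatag
Rpl38, chr11:114668550-114668604, plus strand: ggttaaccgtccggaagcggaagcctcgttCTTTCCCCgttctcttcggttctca
Rps15a, chr7:118116123-118116177, minus strand: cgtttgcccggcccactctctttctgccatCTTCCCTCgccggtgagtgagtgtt
Rps27l, chr9:66946056-66946110, plus strand: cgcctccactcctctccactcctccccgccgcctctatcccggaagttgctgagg
Rpl22, chr4:152325696-152325750, plus strand: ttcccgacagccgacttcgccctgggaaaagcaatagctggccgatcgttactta
Rpl22l1, chr3:28805478-28805532, plus strand: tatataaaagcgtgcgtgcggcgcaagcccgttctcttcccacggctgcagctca
Rplp0, chr5:115559437-115559491, plus strand: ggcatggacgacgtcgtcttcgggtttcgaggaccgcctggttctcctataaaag
Rpsa, chr9:120127736-120127790, plus strand: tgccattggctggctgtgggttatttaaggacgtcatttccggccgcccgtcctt
Rps6, Rps27, Rpl28, Rpl38 and Rps15a had a run that starts at the listed start. Rps27l, Rpl22, Rpl22l1, Rplp0 and Rpsa had none there. The listed start is that of the annotation, and these libraries do not measure start sites.

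Motifs were counted from 30 bases before to 50 bases after the start in the 63 matched genes and in 27025 genes of the same table. A run of at least 8 C or T, read in the direction of transcription, stood in 49 members, 77.8%, against 32.3% of all genes. The run began with C at the listed start and went on for at least 4 more C or T in 13 members, 20.6%, against 3.01% of all genes. The letters CTTTCC, read in the same direction, were found in 18 members, 28.6%, against 4.36% of all genes. The longer string CTCTTTC, which overlaps CTTTCC in some promoters, was found in 12 members, 19.05%, against 1.28%. CCGGAAG, the core of sites bound by ETS factors, was searched on both strands and found in 13 members, 20.6%, against 4.97%. A match describes these letters only.

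Ribosomal protein mRNA was a large part of every library. The 83 genes gave 27.6% of UMIs in treated T11-Apobec cells, 25.9% in untreated T11-Apobec, 29.2% in treated KPB25Luv and 26.6% in untreated KPB25Luv. The libraries thus differed little in the total, while the cell classes differed several-fold.

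Naive T cells, which have not met their antigen and were set by markers such as Ccr7 and Lef1, held among the largest shares. The members made up 35.5% of UMIs in 416 treated T11-Apobec naive T cells, 30.7% in 577 treated KPB25Luv cells and 35.4% in 143 untreated KPB25Luv cells, while untreated T11-Apobec held 4 such cells. Effector T cells, set by cytotoxic genes such as Gzmb and Prf1, stood at 29.1%, 30.4%, 26.8% and 35.3% in treated and untreated T11-Apobec and treated and untreated KPB25Luv, the order kept below where 4 values are given. B cells were close to them, at 32.1%, 34.0%, 30.1% and 32.5%. NK cells, innate cytotoxic lymphocytes, stood at 25.4%, 33.1%, 24.04% and 28.7%, the last 2 from 42 and 27 cells. All T, NK and B cell classes with at least 20 cells were therefore at 24.04% or more.

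Myeloid cells were lower. Macrophages and monocytes, phagocytes set by Csf1r, Adgre1 and Cd68 among others, stood at 17.8%, 20.7%, 13.8% and 20.4%. Neutrophils, short-lived granulocytes set by S100a8 and S100a9 among others, stood at 5.55%, 6.54%, 6.88% and 8.11%. These values came from 31, 129, 25 and 532 cells, whose median shares were 4.38%, 4.79%, 3.66% and 7.50%. In untreated T11-Apobec and treated KPB25Luv the pooled neutrophil value lay above the upper quartile of the cells' own shares, 5.78% and 4.53%. The pooled values of both classes lay below those of the T, NK and B cell classes of the same library, while the cells' own shares overlapped. In treated T11-Apobec, for example, the lower quartile of NK cells was 18.5% and the upper quartile of macrophages 20.9%. The difference between effector T cells and macrophages was 11.3, 9.67, 13.0 and 15.0 percentage points. In untreated KPB25Luv every immune class carried the epithelial tumour list, at 459.1 to 633.9 CPM, with neutrophils at 621 CPM, and the part of free tumour RNA in their shares was not tested.

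Tumour cells stood at 28.6%, 26.8%, 18.2% and 26.5%, the treated KPB25Luv value from 48 cells. In each library they lay above the macrophages. In absolute terms they were above every immune class, with 7434, 3601, 5212 and 5868 ribosomal protein UMIs per cell on average, against 47 to 87 in neutrophils, and this count moves with the size and depth of the cells. Plasma cells, antibody-secreting B lineage cells, stood at 17.0% in 30 treated T11-Apobec cells and 17.5% in 53 treated KPB25Luv cells. With mitochondrial, immunoglobulin and T cell receptor genes taken out of the total, the plasma values became 27.5% and 26.0%.

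**Figure D1:**
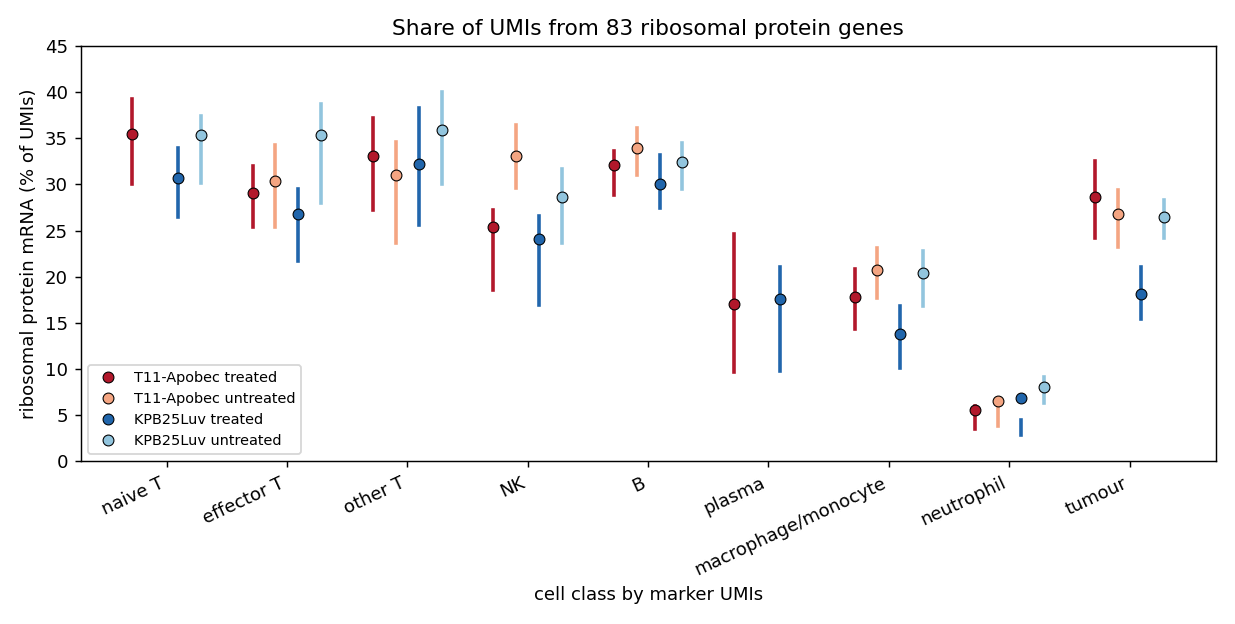
Share of UMIs from the 83 ribosomal protein genes (percent, y axis) by cell class (x axis) and library (colour); points are pooled shares and bars run over the quartiles of the cells' own shares. T, NK and B cell points lie at 24.04% or above, macrophages between 13.8% and 20.7%, and neutrophils between 5.55% and 8.11%.

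The balance between the subunits differed in the KPB25Luv tumour cells. UMIs of large subunit genes exceeded those of small subunit genes 1.46-fold in the treated and 1.36-fold in the untreated KPB25Luv tumour cells. The same ratio was 1.13 and 1.16 in the T11-Apobec tumour cells. In all other classes with at least 20 cells it lay between 0.942 and 1.19.

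Other genes of the pathway were read beside the members. A list of 19 other genes whose mRNAs carry the TOP motif, such as the elongation factors Eef1a1 and Eef2, gave 2.76% to 3.31% of UMIs in naive and effector T cells of libraries with at least 20 of them. The list gave 1.34% to 2.03% in macrophages and 0.789% to 0.978% in neutrophils, so its order over these classes was that of the members. Ribosome biogenesis, the nucleolar assembly of the particle, was read from 28 genes such as Ncl and Fbl. It gave 0.332%, 0.328%, 0.287% and 0.403% of UMIs in tumour cells, which was above the T cell, B cell, macrophage and neutrophil values of the same library. Mitochondrial ribosomal protein genes, which serve a separate ribosome, gave 0.882% to 1.06% in tumour cells against 0.586% to 0.705% in macrophages.

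Single members had a wide range of levels. A 3′ library counts 1 UMI per captured molecule, so CPM needs no scaling by transcript length. The assignment of reads among near-identical copies limits some members. The stalk gene Rplp0, which anchors the stalk on the large subunit, led both T11-Apobec libraries with 8432 CPM (treated) and 7388 CPM (untreated) over all kept cells. Rpl13, a large subunit protein, led both KPB25Luv libraries with 8298 and 11106 CPM. The 10 highest members gave 22.6% to 24.1% of the members' UMIs and the 20 highest 39.6% to 41.4%, so no small group of genes carried the total. Apart from the paralogs, Rpl29, a heparin-binding large subunit protein, was the lowest, with 269.7, 131.2, 218.6 and 276.7 CPM.

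The paralogs were mostly rare. Rpl10l, a copy of Rpl10 known from testis, had 0 UMIs in all 4 libraries, which allows at most 0.0690, 0.0356, 0.106 and 0.0377 CPM by a limit of 3 UMIs over all kept cells. Rpl3l, the heart and skeletal muscle copy of Rpl3, had 17, 14, 4 and 30 UMIs. Rpl39l, the testis copy of Rpl39, had 20, 73, 122 and 62 UMIs. Rpl7l1, which works in assembly of the large subunit, was at 89.5, 111.1, 78.2 and 123.8 CPM. Rpl22l1 and Rps27l were expressed at levels that can be compared with those of Rpl22 and Rps27, and are given with them below.

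Between classes of 1 library, members were compared by their log2 ratio of CPM, with a difference counted at 1.5-fold or more and features kept that had at least 50 UMIs in both arms together. By that minimum 80 of the 83 members were tested in each comparison between classes, the exceptions being Rpl10l, Rpl3l and Rpl39l. The share of all tested features past the same fold stands beside each count made with the main settings. Most counts between classes with other settings lack it and are not read against it.

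Macrophages had less of nearly every member than naive T cells. Of 80 members, 72 were lower in treated T11-Apobec, where 30% of all features were, 76 in treated KPB25Luv, where 44.2% were, and 59 in untreated KPB25Luv, where 23.8% were. The members' median log2 ratio was -0.97, -1.13 and -0.77 in these 3 libraries, against -0.05, -0.43 and 0.06 over all features. With TMM scaling, which sets the trimmed mean ratio of all features to 0, the counts were 50, 66 and 48. Rps27, a zinc-finger protein of the small subunit, was at 8778, 7242 and 6964 CPM in the naive T cells and at 2154, 2660 and 2037 CPM in the macrophages of the same libraries, so every macrophage value lay below every naive T value. Its log2 ratio was -2.03 (95% interval -2.06 to -1.99), -1.44 (-1.52 to -1.37) and -1.77 (-1.84 to -1.71). Rpsa, also known as a laminin receptor, was at 1609, 1132 and 2802 CPM in macrophages against 4644, 4198 and 5473 CPM in naive T cells, again without overlap. Rplp0 went the same way, with 3885, 2708 and 4358 CPM in macrophages against 9467, 7685 and 6755 CPM in naive T cells. Rps2, a small subunit protein near the mRNA entry, was past the fold only in treated KPB25Luv among these 3 libraries, with ratios of -0.18, -0.95 and -0.16.

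Rps27l ran against most members. It is the paralog of Rps27 and a known target of the tumour suppressor p53. Macrophages had 648.8, 678.9 and 567.2 CPM of it against 235.8, 339.8 and 241.1 CPM in naive T cells of treated T11-Apobec, treated KPB25Luv and untreated KPB25Luv. The log2 ratio was 1.46 (1.28 to 1.64), 1.0 (0.82 to 1.17) and 1.23 (0.93 to 1.55), and Rps27l was the member with the highest ratio in each. The other member above 0 was Rpl7l1, at 76.4 CPM in macrophages against 52.8 CPM in naive T cells of treated T11-Apobec and 85.4 against 78.6 CPM in untreated KPB25Luv, inside the fold in both. Of 10 other p53 target genes, 8, 6 and 6 passed the minimum in these comparisons, with 3, 2 and 4 higher and 3, 2 and 1 lower.

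Neutrophils had less than macrophages again. In untreated T11-Apobec 78 of 80 members were lower, against 50.8% of all features, and in untreated KPB25Luv 76 were, against 39.2%. The members' median was -1.79 and -1.39, and that of all features -0.62 and -0.29. Rpl3, which shapes the peptidyl transferase centre, was at 455.6 and 573.6 CPM in neutrophils against 2756 and 2558 CPM in macrophages, log2 ratios of -2.58 (-3.06 to -2.17) and -2.15 (-2.32 to -2.00). Rps9, a small subunit protein, did not follow. It was at 3862 and 3284 CPM in neutrophils and 3831 and 4172 CPM in macrophages, and its ratio of 0.01 (-0.14 to 0.16) and -0.35 (-0.41 to -0.28) stayed inside the 1.5-fold limit. Rps27 stayed inside it too, at -0.09 (-0.26 to 0.07) and -0.19 (-0.29 to -0.10). Neutrophils also carried 1.22% to 1.59% of UMIs from 8 dissociation stress genes such as Fos and Jun, against 0.118% to 0.307% in macrophages, and the part of that in these ratios was not tested.

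Some members were higher in tumour cells than in macrophages. In treated T11-Apobec 49 of 80 were higher, against 39.2% of all features, in untreated T11-Apobec 23, against 40.1%, and in untreated KPB25Luv 21, against 42.0%. Only the treated T11-Apobec count was a larger share than that of all features. The members' median log2 ratio was 0.70, 0.35 and 0.37 in these libraries, against 0.30, 0.32 and 0.37 over all features. With TMM scaling the counts were 29, 13 and 8. With cells thinned to 1000 UMIs, 9 of 80 were higher in untreated T11-Apobec, and 34 of 79 in untreated KPB25Luv, beside 471 of 1244 features. Rplp0 was at 10113, 8075 and 7187 CPM in the tumour cells and 3885, 3994 and 4358 CPM in the macrophages of treated T11-Apobec, untreated T11-Apobec and untreated KPB25Luv, with no overlap. Rpsa was likewise higher, with log2 ratios of 1.35, 1.13 and 0.89. Rps29, a small zinc-finger protein of the small subunit, was lower in tumour cells, at -0.18, -0.60 and -0.41.

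Rps21 and Rpl37 were high in tumour cells of untreated KPB25Luv. Rps21, a small subunit protein, was at 1529, 1875, 1927 and 3433 CPM in the 4 tumour classes. Its treated KPB25Luv value, from 48 cells, lay near that of untreated T11-Apobec, so only untreated KPB25Luv stood apart. Rpl37, a zinc-finger protein of the large subunit, was at 3114, 3679, 4923 and 4886 CPM, so both KPB25Luv values lay above both T11-Apobec values. Against the macrophages of untreated KPB25Luv the log2 ratios of Rps21 and Rpl37 were 1.58 and 1.24.

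**Figure D2:**
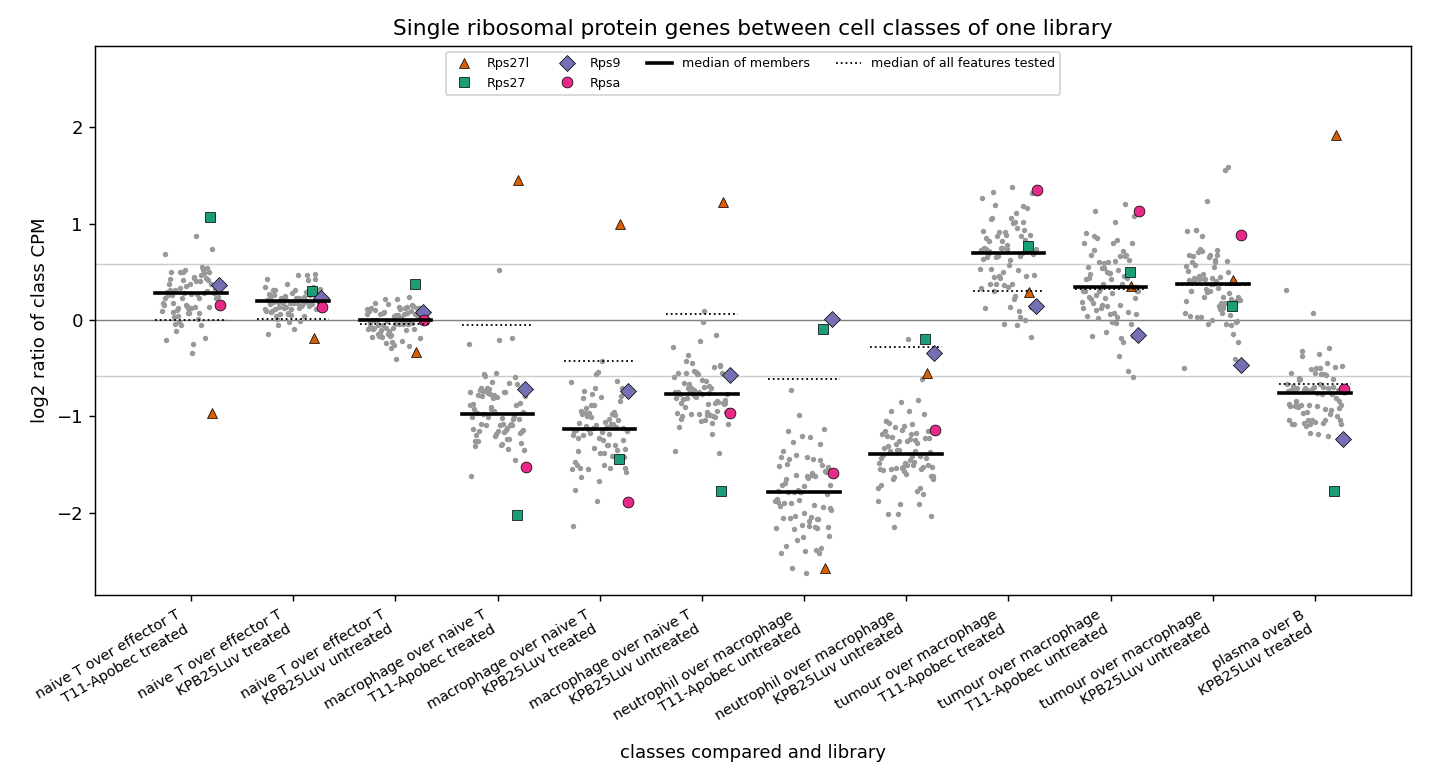
Log2 ratio of CPM (y axis) for each member in comparisons between cell classes of 1 library (x axis); solid bars are member medians, dotted bars medians of all features tested, and enlarged points the genes named in the legend. Most members lie below 0 in macrophages over naive T cells and in neutrophils over macrophages, with Rps27l above 0 in the first and Rps9 near 0 in the second.

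Naive and effector T cells differed less. In treated T11-Apobec 5 of 80 members were higher in naive T cells by the fold, against 18.6% of all features, in treated KPB25Luv 0 were, against 8.17%, and in untreated KPB25Luv 0 were, against 11.2%. Without regard to size, 70, 74 and 39 of the 80 were above 0. Rps29 was at 4780, 5257 and 5342 CPM in naive and 2254, 3774 and 4117 CPM in effector T cells, log2 ratios of 1.08, 0.48 and 0.38. Rps27 followed with 1.07, 0.30 and 0.38, and the stalk gene Rplp1 with 0.87, 0.46 and 0.11. Rps27l had ratios of -0.97, -0.19 and -0.33. The largest differences of these 4 genes were all in treated T11-Apobec.

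Plasma cells could be set against B cells in treated KPB25Luv. There 62 of 80 members were lower, against 53.6% of all features, and the medians were -0.76 for the members and -0.66 for all features. The TMM factor of that comparison was -0.57 on the log2 scale, and with TMM scaling 5 members were lower and 3 higher. With mitochondrial, immunoglobulin and T cell receptor genes outside the total, 10 members passed the fold in either direction. Rps27l was at 953.6 CPM in plasma and 252.2 CPM in B cells, a log2 ratio of 1.92 (1.76 to 2.07), and Rps27 was at 2534 against 8669 CPM, a ratio of -1.77. Both ratios were larger in size than the TMM factor, and they lay on opposite sides of 0.

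Seen as a pair, Rps27l made up 1.94% to 9.97% of the Rps27l and Rps27 UMIs in the T, NK and B cell classes with at least 20 cells. In macrophages it made up 23.1%, 17.8%, 20.3% and 21.8%, in tumour cells 17.8%, 16.4%, 27.3% and 25.3%, and in plasma cells 29.8% and 27.3%. No lymphocyte value other than plasma overlapped the macrophage, tumour or plasma values. Neutrophils had 1.54%, 3.59%, 0% and 17.8%. Rps27rt, an annotated near-identical copy of Rps27, took 13.0%, 11.8%, 5.64% and 3.87% of the UMIs of both. The level of Rps27 thus depends on how such reads were assigned.

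Rpl22 binds ribosomal RNA and is needed for the development of T cells, and Rpl22l1 is its paralog. Rpl22l1 made up 54.8%, 56.9% and 41.9% of the pair in naive T cells of treated T11-Apobec, treated KPB25Luv and untreated KPB25Luv. In macrophages it made up 48.4%, 50.2%, 45.2% and 41.9% in the 4 libraries, and in tumour cells 40.6%, 35.9%, 53.8% and 41.3%. The 2 KPB25Luv libraries differed in each of these classes by more than their counting intervals except in macrophages, where the intervals of 41.7% to 48.7% and 40.9% to 43.0% overlapped.

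**Figure D3:**
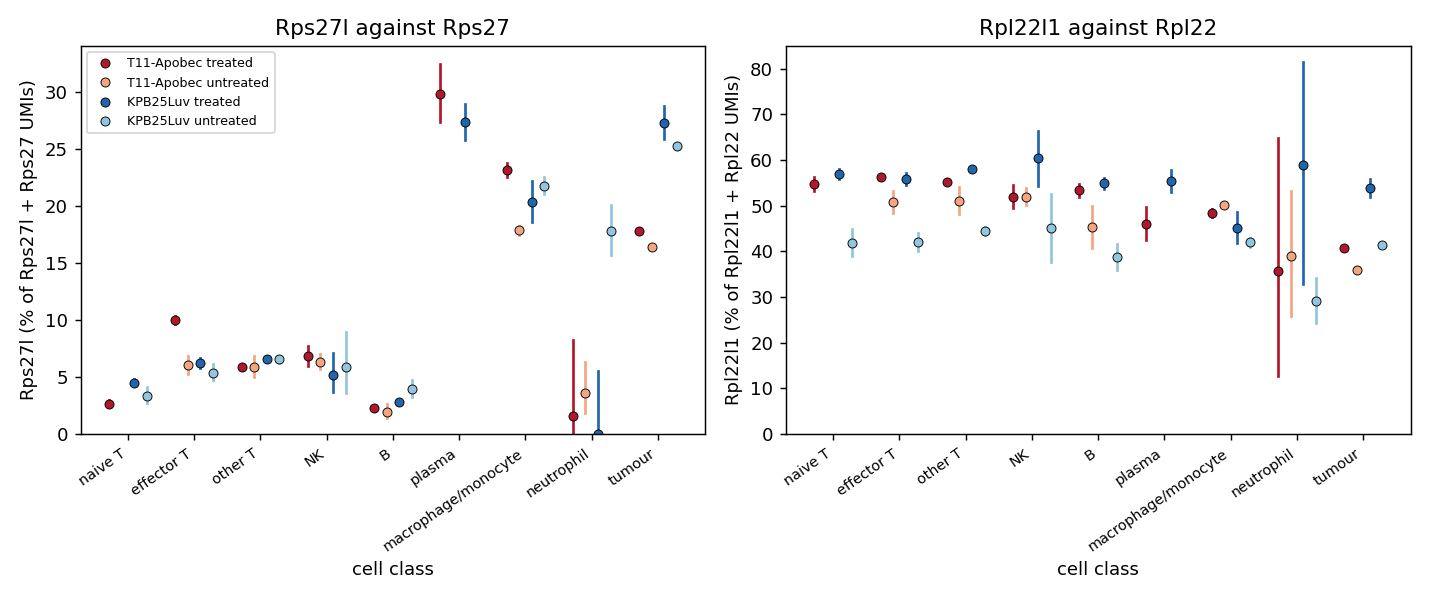
Percent of a paralog in the summed UMIs of the paralog and its parent gene (y axis) by cell class (x axis) and library (colour), for Rps27l with Rps27 and Rpl22l1 with Rpl22; bars are exact 95% binomial intervals for counting error. Rps27l lies at 9.97% or below in T, NK and B cells and at 16.4% or above in macrophage, tumour and plasma cells.

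The members also varied among themselves once the total was set aside. Each member's share of the ribosomal protein UMIs of a class was divided by its share in all kept cells of that library. Among members measured in at least 20 combinations of class and library, Rps27l had the widest spread, from -1.97 to 1.75 on the log2 scale over 26 combinations. Rpl7l1, Rps27, Rps9 and Rps2 were also among the members with the largest standard deviations. Rps9 reached 2.12 in neutrophils of untreated T11-Apobec, where it gave 5.90% of the members' UMIs against 1.36% in all kept cells. Of 81 members measured this way, 44 stayed within 1.5-fold in every combination measured. Rpl18, Rps23, Rpl11 and Rpl7 were the steadiest, Rpl18 staying between -0.12 and 0.16.

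**Figure D4:**
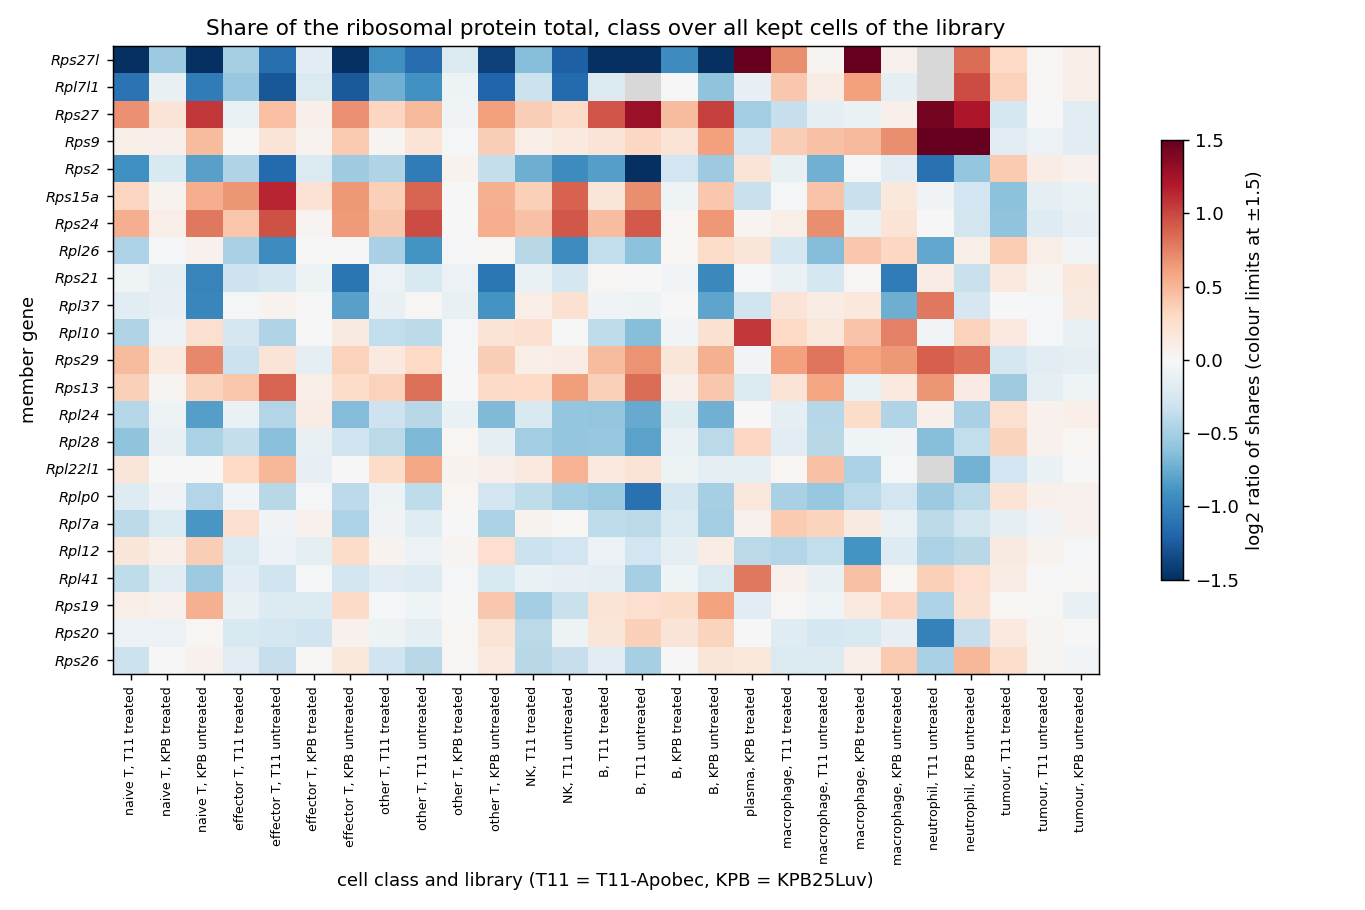
Log2 ratio of a member's share of the ribosomal protein UMIs in a class to its share in all kept cells of the library (colour), for most of the more variable members (y axis) by class and library (x axis). The reference includes the class itself, and its mix of classes differs between libraries. Rps27l is high in plasma cells and low in naive T and B cells, and Rps9 is highest in neutrophils.

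Treated and untreated libraries were compared within each model and class, where both had at least 50 cells. In T11-Apobec the members' summed share differed little in most classes, with log2 ratios of -0.06 in effector T cells, 0.09 in the T cells assigned to neither the naive nor the effector class (other T cells), -0.08 in B cells and 0.10 in tumour cells. The direction in effector T and B cells depends on the scaling, since their member medians of -0.02 and -0.05 became 0.11 and 0.10 with TMM scaling. The share was lower in treated NK cells, at -0.38, and in treated macrophages, at -0.22. In KPB25Luv it was lower in the treated library in all 5 classes compared, at -0.20 in naive T, -0.40 in effector T, -0.16 in other T, -0.11 in B cells and -0.56 in macrophages. The 6 cell cycle genes were at 859.4 CPM in treated and 330.3 CPM in untreated KPB25Luv naive T cells, with all 6 past the fold. In effector T cells they were at 703.7 and 388.9 CPM, with 5 of 6 past it. Treated KPB25Luv cells of 5000 to 20000 UMIs were split into those with at least 3 UMIs of these genes and those without any. The first had a lower ribosomal protein share, 26.5% against 36.0% in naive and 24.3% against 32.0% in effector T cells. Cells between these limits were left out. The part of cycling cells in the difference between the libraries was not tested. In treated KPB25Luv effector T cells the share moved with depth, running from 10.4% in 26 cells of 500 to 1000 UMIs to 28.4% in 75 cells of 5000 to 10000 UMIs. At 5000 to 10000 UMIs the untreated effector T cells stood at 38.7%. With cells thinned to 1000 UMIs the ratio of -0.40 became -0.26. The classes were set again from the thinned counts, so the cells compared were not all the same, and the part of depth was not tested.

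KPB25Luv macrophages held the most members past the fold. There 46 of 80 were lower in the treated library, against 28.8% of all features, and 1 was higher, against 14.3%. With TMM scaling 36 were lower and 3 higher, beside 1810 and 1324 of 7480 features. Rpl12, at the base of the stalk, was at 525.1 CPM treated and 1636 CPM untreated, a log2 ratio of -1.64 (-1.80 to -1.48). Rpl10a, another large subunit protein, was at -1.34, and Rpsa at -1.31 (1132 against 2802 CPM). Of the 19 other TOP genes 12 were lower and 1 higher. Of the biogenesis genes, 17 of the 25 tested were lower and 0 higher. The treated class had 115 cells and the untreated 640, and 6 cell cycle genes gave 0.00425% of UMIs against 0.0505%, whose part in the result was not tested.

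In KPB25Luv effector T cells 21 of 80 members were lower in the treated library, against 8.91% of all features, and 1 was higher, against 22.2%. With TMM scaling 28 were lower and 1 higher, beside 572 and 1118 of 5510 features. With cells thinned to 1000 UMIs 13 were lower and 2 higher, beside 205 and 453 of 2264 features. Of the biogenesis genes tested there, 11 of 23 were lower and 0 higher. In naive T cells 4 members were lower and 3 higher, against 9.22% and 21.3% of all features. In other T cells, where 81 members were tested, 1 was lower and 5 higher, against 10.2% and 13.8%. In B cells 2 were lower and 5 higher, against 12.1% and 15.9%. The naive, other T and B cell counts are each a smaller share than that of all features in the same direction.

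In T11-Apobec, 16 of 80 members were lower in treated NK cells, against 8.77% of all features, and 0 higher, against 14.0%. With cells thinned to 1000 UMIs 31 of 79 were lower, beside 112 of 945 features. The 6 cell cycle genes summed to 209.0 CPM in treated and 575.0 CPM in untreated NK cells, with 4 of the 5 tested lower, and their part in these values was not tested. Rps28, a small subunit protein near the mRNA exit, was at 1993 CPM treated and 3787 CPM untreated there, a log2 ratio of -0.93 (-1.02 to -0.83). Of the biogenesis genes tested in NK cells, 6 of 13 were lower. Effector T cells had 4 members higher and 6 lower, against 12.4% and 14.8% of all features. Other T cells had 4 higher and 0 lower, against 12.9% and 14.7%. B cells had 3 and 3, against 16.8% and 13.2%. Macrophages had 1 higher and 5 lower, against 7.65% and 8.57%, and tumour cells 2 higher and 1 lower, against 7.48% and 7.86%. With the exception of NK cells, each of these counts was under the share of all features. In the T11-Apobec untreated library 7 of 8 dissociation stress genes were higher than in the treated one in both macrophages and tumour cells, and their part in these values was not tested.

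In T11-Apobec some members passed the fold in several classes. Rpl29 was at 288.3 CPM treated and 133.5 CPM untreated in effector T cells, 209.6 and 128.4 CPM in macrophages, and 272.0 and 130.0 CPM in tumour cells. Its log2 ratios were 1.10 (0.76 to 1.48), 0.71 (0.60 to 0.82) and 1.06 (1.01 to 1.12), and in NK cells 0.33 (-0.02 to 0.67). Rpl10, which joins the large subunit late in assembly, had ratios of 0.65 in effector T, 0.69 in B and 0.77 in tumour cells. Rps2 had ratios of 0.83, 0.78 and 0.55 in the same classes and 0.02 in NK cells. Rps28 and Rps29 went the other way, Rps28 with -0.82, -0.65 and -0.66 and Rps29 with -0.97, -0.67 and -0.38. Rpl10, Rpl29 and Rps2 passed the fold upward in at least 3 of 6 classes, and Rpl38, Rps27, Rps28 and Rps29 downward. These are 3 and 4 of 80 members, beside 2.91% and 1.80% of the 2612 features tested in all 6 classes. The upward count was close to the share of all features, and the downward count was a larger share. Lymphocytes, macrophages and tumour cells shared these directions, apart from the value of Rps2 near 0 in NK cells, and library and treatment cannot be told apart.

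In KPB25Luv the members past the fold in several classes included Rpl27, Rpl41 and Rpl12. Rpl27, of the large subunit, was at 1390 CPM treated and 833.5 CPM untreated in naive T cells and at 1370 and 778.3 CPM in B cells. Its log2 ratio was between 0.58 and 0.81 in the 5 classes. Rpl41, a very short basic protein at the subunit interface, had ratios of 0.84, 0.53, 0.71, 0.73 and 0.52 in naive T, effector T, other T, B cells and macrophages. Rpl12 was lower in all 5, with -0.86, -1.20, -0.75, -0.73 and -1.64. Upward in at least 3 classes were Rpl27, Rpl41 and Rps28, and downward Rpl12, Rpl19, Rpl30, Rps12 and Rps21. These are 3 and 5 of 80 members, beside 9.64% and 4.29% of the 4294 features tested in all 5 classes. The upward count was a smaller share than that of all features, and the downward count a somewhat larger one. Rps28 was higher in treated KPB25Luv, at 0.90 in B cells and 0.65 in macrophages, and lower in treated T11-Apobec, at -0.65 and -0.75.

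Over all classes of KPB25Luv, 52 of 80 members were below 0 in each of the 5 classes, against 13.6% of all features tested in all 5, and 6 were above 0, against 15.4%. The 6 were Rpl27, Rpl35a, Rpl37a, Rpl41, Rps27 and Rps28. With TMM scaling 50 were below, against 12.2% of these features, and 8 above, against 18.5%. In T11-Apobec 13 of 80 were below 0 in each of the 6 classes, against 7.77%, and 5 were above, namely Rpl10, Rpl13a, Rpl27, Rpl29 and Rps2, against 3.48%. With TMM scaling 10 were below, against 3.98%, and 3 above, against 6.20%. Rpl27 and Rps2 were no longer among those above, which were then a smaller share than that of all features. The classes of 1 model share their 2 libraries.

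**Figure D5:**
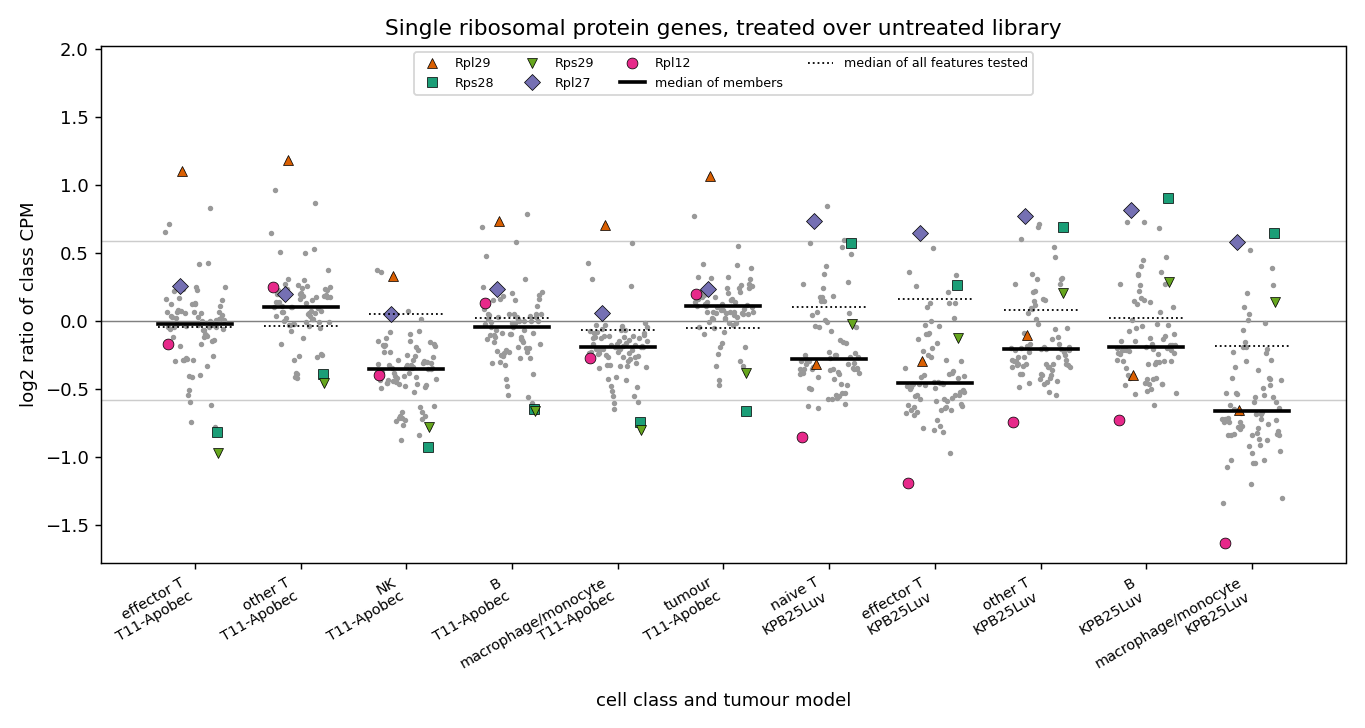
Log2 ratio of CPM, treated over untreated (y axis), for each member by model and cell class (x axis); solid bars are member medians, dotted bars medians of all features tested, and enlarged points the genes named in the legend. KPB25Luv macrophages have the lowest member median, -0.66, and Rps28 lies below 0 in T11-Apobec and above 0 in KPB25Luv.

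Some member levels depend on how reads of near-identical copies were assigned. Rpl36al, a copy of Rpl36a, took 30.4%, 26.5%, 21.6% and 16.7% of the UMIs of both. Rpl10-ps3 took 9.06%, 9.17%, 3.07% and 3.81% with Rpl10, and Rpl27-ps3 4.46%, 3.99%, 8.66% and 11.7% with Rpl27. In KPB25Luv the share of Rpl27-ps3 was lower in the treated library, where Rpl27 itself was higher. These shares count only UMIs that were assigned to a copy. How uncertain the levels of Rps27, Rpl36a, Rpl10 and Rpl27 are was not measured.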

How the data were processed

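The 4 libraries were 10x Genomics 3′ single-cell libraries (version 2 chemistry), per the labels' protocols. The authors deposited raw UMI counts per gene and barcode, which Cell Ranger had made. The file headers give its version as 3.0.2, and the submitters' processing notes name mm10. Barcodes with fewer than 200 genes or over 10% mitochondrial UMIs were removed, as were the top Scrublet scores (scanpy 1.11.5) at 0.8% per 1000 barcodes, which took 301, 852, 222 and 335 barcodes. Cells were classed by fixed marker genes, and the minimums of marker UMIs were set after the data were seen. Cells that met more than 1 class or none were left out of the classes.

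Counts were summed per class. A level is CPM, UMIs per 1000000 UMIs of the class. Ratios used 0.5 added counts with exact conditional 95% intervals, shares had exact Clopper-Pearson 95% intervals, and features needed at least 50 UMIs in both arms and classes at least 50 cells. The minimum for a level was 20 cells. The minimum fold was 1.5. With 1 library per group no test was run, and no p-value was computed. Alternatives were a minimum of 500 genes, a limit of 20% mitochondrial UMIs, doublets kept, doubled marker minimums, cells thinned to 1000 UMIs, another denominator, medians over cells, a minimum of 10 UMIs and TMM scaling (edgeR 4.0.16). Thinned cells were classed again from their thinned counts.

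Members named in the text were the stalk genes, Rpsa, paralogs and other genes listed in advance and, per comparison, the 3 highest and the 3 lowest ranked on whichever interval bound was closer to 0. Rpl7, Rpl11, Rpl18, Rpl28, Rpl35a and Rps23 lie outside this rule and were picked with their values or sequences in view. The members and lists were chosen with earlier results of these data known. Promoter sequences came from RefSeq records on GRCm38.p6, the assembly of mm10. Single results for some genes are not reported here. The ratios were tested on simulated counts. Python 3.11.15, numpy 2.4.6, scipy 1.17.1 and R 4.3.3 were used.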

Additional observations from a re-analysis of the deposited data

Results flagged for a closer look

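In some classes the 2 tumour models moved in opposite directions between the treated and the untreated library. The share of ribosomal protein UMIs in T cells of neither the naive nor the effector class had a log2 ratio of 0.0943 in T11-Apobec and -0.157 in KPB25Luv. Rps28 in B cells had -0.65 in T11-Apobec and 0.90 in KPB25Luv, and in macrophages -0.75 and 0.65. Rpl29 in macrophages had 0.71 in T11-Apobec and -0.65 in KPB25Luv. With 1 library per group, the difference between the models was not tested.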

How the results depend on the processing

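No paired analysis was possible because the groups compared had 1 library each and so share fewer than 2 replicate numbers. No summed share, difference or ratio of shares changed its sign under the alternatives that recompute shares. TMM scaling was not applied to shares, and with it the member medians of -0.02 in effector T and -0.05 in B cells of T11-Apobec became 0.11 and 0.10. Of the values that answer a comparison, 90 stayed and 75 moved beyond counting error or 1.5 times, and of those for single members, classes and libraries 192 stayed and 147 moved.

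The difference between effector T cells and macrophages, 11.3, 9.67, 13.0 and 15.0 percentage points in treated and untreated T11-Apobec and treated and untreated KPB25Luv, moved beyond counting error as follows. It was 11.2, 9.07 and 14.6 with doublets kept (first, second and last library), 11.7, 9.19, 13.1 and 16.0 with doubled marker minimums, and 12.3, 10.1 and 17.2 with cells thinned to 1000 UMIs (first, second and last). Without mitochondrial, immunoglobulin and T cell receptor genes it was 11.2, 13.4 and 15.3 (all but the second), and as a median over cells 11.7, 9.22, 11.9 and 14.5. In treated KPB25Luv it was 13.1 with at least 500 genes and 12.8 with up to 20% mitochondrial UMIs.

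The treated over untreated log2 ratio of the share moved in T11-Apobec to -0.0525 in effector T, -0.366 in NK, -0.0604 in B cells and -0.23 in macrophages with doublets kept. Doubled minimums gave -0.0296 in effector T, 0.071 in other T, -0.365 in NK, -0.233 in macrophages and 0.0857 in tumour cells. Thinning gave 0.0265 in other T, -0.52 in NK and -0.26 in macrophages. The smaller denominator gave -0.0721 in effector T, -0.0592 in B and 0.0993 in tumour cells. Medians gave -0.0479 in effector T, 0.19 in other T, -0.56 in NK, -0.115 in B, -0.26 in macrophages and 0.11 in tumour cells. At least 500 genes gave 0.0712 in other T and -0.115 in B cells, and the 20% limit -0.22 in macrophages.

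In KPB25Luv doublets kept gave -0.14 in other T, -0.0775 in B and -0.58 in macrophages. Doubled minimums gave -0.43 in effector T, -0.18 in other T and -0.55 in macrophages. Thinning gave -0.17 in naive, -0.26 in effector and -0.13 in other T cells. The smaller denominator gave -0.15 in other T and -0.0974 in B cells. Medians gave -0.17 in naive, -0.47 in effector and -0.18 in other T cells and -0.62 in macrophages. The 20% limit gave -0.21 in naive and -0.41 in effector T cells.

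Counts of members past the fold, over all libraries compared, moved by over 1.5 times in these cases. Thinning changed 89 to 36 for treatment in KPB25Luv, 2 to 1 for B over naive T, 3 to 10 for NK over effector T, 154 to 72 for neutrophils over macrophages and 94 to 45 for tumour cells over macrophages. TMM scaling changed 2 to 1 for B over naive T, 63 to 8 for plasma over B, 3 to 9 for NK over effector T and 94 to 54 for tumour cells over macrophages. The smaller denominator changed 63 to 10 for plasma over B, and doubled minimums 6 to 17 for naive over effector T. Member shares past the fold over all classes changed from 19, 64, 11 and 54 to 8, 21, 1 and 30 with thinning. Thinning leaves fewer cells and features, and the classes were set again from the thinned counts. A class fell under 50 cells in 7 comparisons with thinning and in 4 with doubled minimums, which gave no value. Thinning thereby lost KPB25Luv macrophages (47 of the 89), T11-Apobec neutrophils (78 of the 154) and treated T11-Apobec tumour cells (49 of the 94). The cause of the other changes was not tested. Depth limits the classes under 50 cells, and intervals cover counting error only.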

Other observations

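Cells with at least 3 UMIs of 6 cell cycle genes were set beside cells of the same class without any. Both had 5000 to 20000 UMIs. The cells without any are called other cells here, and cells between these limits were left out. In T cells of neither the naive nor the effector class the ribosomal protein share was 30.1% in cycling and 37.5% in other cells of treated T11-Apobec, 28.5% and 37.3% in treated KPB25Luv, and 34.5% and 41.2% in untreated KPB25Luv. The cycling cells were lower in all 3 libraries. Treated KPB25Luv naive T cells had 26.5% and 36.0%, and B cells 26.5% and 34.4%, from 23 cycling and 27 other B cells. Effector T cells had 27.9% and 32.1% in treated T11-Apobec and 24.3% and 32.0% in treated KPB25Luv. Macrophages differed less, with 17.2% and 17.9% in treated T11-Apobec, 20.8% and 21.5% in untreated T11-Apobec and 20.5% and 20.1% in untreated KPB25Luv. Tumour cells of untreated T11-Apobec had 26.3% and 26.7%, and those of untreated KPB25Luv 25.9% and 28.2%, from 694 cycling and 29 other cells. The cycling cells were deeper within this range, with medians of 11688 against 6144 UMIs in treated KPB25Luv T cells of neither class, and the part of depth was not tested.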
